A study of Mus musculus with 15 samples.

Results

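The *NRF2* KO line of Lewis lung carcinoma cells was compared with its parental line, LL2 WT, without any treatment, to see which transcripts are lower or higher in cells that have lost basal NRF2. Each line gave 3 biologic replicates, so the comparison rests on 6 of the 15 samples sequenced. All samples came from LL2/Luc2, a mouse lung tumor line grown in DMEM with serum. LL2 WT is the unedited parental line. *NRF2* KO carried a CRISPR knockout of *Nfe2l2*, the gene of NRF2, made by nucleofection of a plasmid with Cas9, a guide RNA and GFP, followed by sorting of single GFP-positive cells. It is 1 clone, expanded for weeks from 1 cell, and none of the sources used here describes a single-cell step for LL2 WT. The loss of NRF2 and the choice of this clone therefore cannot be told apart. The other 9 samples came from 3 *KEAP1* KO clones, made in the same way against *Keap1*. They share the estimate of the spread, and their mean levels are given for many of the genes described, without a test, since both contrasts use the same LL2 WT samples.

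NRF2 is a transcription factor that binds antioxidant response elements together with a small MAF protein. KEAP1 holds it in the cytoplasm and hands it to a CUL3 ubiquitin ligase, so that little NRF2 acts in unstressed cells and oxidants or electrophiles release it. Its best-known targets reduce quinones, make and conjugate glutathione, repair oxidized thiols, supply NADPH, handle heme and iron, and export conjugates. A basal target is one that needs the small amount of NRF2 present without stress.

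The deposited values are CPM, read counts scaled to a common total, which sum to 999412 to 999525 per sample. How many reads each sample had is unknown, so low values carry an unstated counting error. Of 35880 genes, 14652 had CPM summing to 3 or more over the 15 samples and were tested with limma on log2(CPM + 0.1), a scale that understates the change of low genes. A gene was called at an adjusted p under 0.05 (Benjamini-Hochberg over all genes tested) with an absolute log2 fold change over 1. Of 13 lung epithelial markers, 9 stayed under 0.1 CPM in all 6 samples, among them *Epcam*, *Cdh1* and *Nkx2-1*, whereas *Krt18* and *Krt8* were present. The 13 mesenchymal markers summed to 3892 to 6238 CPM in LL2 WT against 3439 to 4914 CPM in *NRF2* KO, with *Vim* in front, and the 14 leukocyte markers to 15.2 to 17.9 CPM and 15.9 to 18.7 CPM, with *Ptprc* under 0.1 CPM. The sums of 2 lists did not overlap between the lines: the epithelial markers, mainly *Krt18* and *Krt8*, summed to 591.5 to 662 CPM in LL2 WT against 385.5 to 547 CPM in *NRF2* KO, and the 8 endothelial markers, mainly *Egfl7*, to 28.4 to 34.3 CPM against 24.3 to 27.4 CPM. Their part in the results was not tested. No gene of the 5 marker lists was called. In bulk samples such as these, fewer cells with a transcript and less of it per cell cannot be told apart.

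*Nfe2l2* itself was present at 179, 170.2 and 208 CPM in LL2 WT against 102, 108 and 146 CPM in *NRF2* KO. All 3 *NRF2* KO samples lay below LL2 WT, with a log2 fold change of −0.66 (standard error 0.125, adjusted p = 0.0301), which is short of a call. The transcript was thus kept at 63.9% of the LL2 WT mean. Its means in the *KEAP1* KO clones, in which *Nfe2l2* was not the gene edited, were as low, at 96.4, 123 and 116 CPM, and a gene-level value does not show the edit or the protein. *Keap1* was at 24.03, 21.98 and 22.9 CPM in LL2 WT against 21.8, 21.6 and 24.8 CPM in *NRF2* KO, and the lines overlapped (log2 fold change −0.02, 95% confidence interval −0.48 to 0.44). The clones averaged 11.8, 5.53 and 5.58 CPM of *Keap1*.

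Few genes were called. There were 68 calls, of which 55 were lower in *NRF2* KO, or 0.375% of the genes tested, and 13 were higher, or 0.0887%. In each of the 68 the 3 *NRF2* KO samples lay beyond all 3 LL2 WT samples, which follows largely from calling them on these same samples. Over all genes tested, 4.53% had all *NRF2* KO samples below LL2 WT and 8.68% had all of them above, and the median log2 fold change was 0.04. Another 23 genes had an adjusted p under 0.05 with a change under 2-fold, and 1641 had an unadjusted p under 0.05.

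Known NRF2 targets made up 15 of the 55 genes called lower and none of those called higher. They were listed by role, 152 genes in 8 lists, of which 149 are in the table and 136 were tested. The list of feedback genes and regulators also holds partners of NRF2, among them *Keap1*, *Cul3* and *Bach1*, which are counted with the targets. The lists were drawn up with earlier results of these data known, so the shares describe and do not test. Of the 136, 15 were called lower, or 11%, against 0.375% of all genes tested, and 121 were not called. Every *NRF2* KO sample lay below LL2 WT for 34 of the 136 and above for 4, beside 4.53% and 8.68% of all genes tested. The same background applies to each role list below. The median log2 fold change of the 136 was −0.18, and 93 lay below 0, beside 6390 of all 14652 genes tested. It ran from −0.13 without LL2 WT replicate 1 to −0.28 without LL2 WT replicate 3, with 80 to 96 below 0 over the 6 samples left out, and was −0.11 with a pseudocount of 1 CPM. Among the 17 called-lower genes with a mean of at least 10 CPM in LL2 WT, 11 were such targets. The plot of each sample shows that the 15 ranged from a fall to 49.3% of the LL2 WT mean for *Srxn1* to 1.495% for *Ugt1a6a*.

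**Figure D1:**
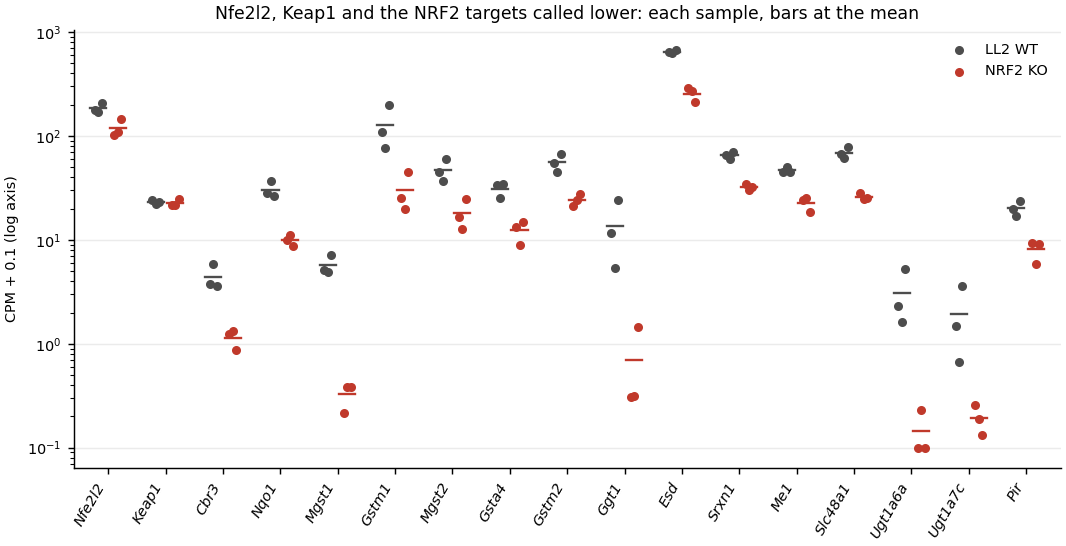
CPM plus 0.1 on a log axis for *Nfe2l2*, *Keap1* and the 15 NRF2 targets called lower, by role from left to right, with 3 points per line and a bar at the mean (grey, LL2 WT; red, *NRF2* KO). *Keap1* overlaps between the lines, whereas the 15 targets and *Nfe2l2* do not, and *Mgst1*, *Ggt1*, *Ugt1a6a* and *Ugt1a7c* show the widest gaps.

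The core of an antioxidant response element, TGACNNNGC on either strand, was looked for in RefSeq promoter windows of build GRCm38.p6, which reach from 250 bases before to 50 bases after an annotated start. Windows were at hand for 13 of the 15 targets called lower, and 5 of the 13 (38.5%: *Ggt1*, *Me1*, *Mgst1*, *Pir* and *Srxn1*) held the core. It was found in none of the 26 other genes called lower that have a window and in none of the 9 called higher, against 16.7% of the 10126 tested genes with a window and 12.4% of all 32851 windows. A match is a description of letters, and no match says only that these letters are not in this window. The 3 stretches below are shown because they belong to the genes of a basal NADPH enzyme, of a transferase that fell to 4.01% of the LL2 WT mean and of an NRF2-induced regulator, and each holds the core. They run 5′ to 3′ on the strand of the gene, with the core in capitals and ending at or just past the start, and the position is that of the core's first printed base, counted from the start.
*Me1*, chr9:86695912-86696164, minus strand, core at −6 and reaching 3 bases past the start: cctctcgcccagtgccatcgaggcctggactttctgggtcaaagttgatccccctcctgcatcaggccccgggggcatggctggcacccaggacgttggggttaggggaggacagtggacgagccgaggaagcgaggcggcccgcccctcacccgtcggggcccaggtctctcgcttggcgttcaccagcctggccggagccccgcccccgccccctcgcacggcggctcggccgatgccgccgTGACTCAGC
*Mgst1*, chr6:138140277-138140526, plus strand, core on the opposite strand at −56: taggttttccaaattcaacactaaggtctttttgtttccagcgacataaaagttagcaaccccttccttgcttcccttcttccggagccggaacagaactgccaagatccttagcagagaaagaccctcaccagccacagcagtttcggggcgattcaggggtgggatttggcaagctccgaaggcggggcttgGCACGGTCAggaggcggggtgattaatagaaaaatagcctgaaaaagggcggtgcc
*Pir*, chrX:164269181-164269430, plus strand, core on the opposite strand at −214: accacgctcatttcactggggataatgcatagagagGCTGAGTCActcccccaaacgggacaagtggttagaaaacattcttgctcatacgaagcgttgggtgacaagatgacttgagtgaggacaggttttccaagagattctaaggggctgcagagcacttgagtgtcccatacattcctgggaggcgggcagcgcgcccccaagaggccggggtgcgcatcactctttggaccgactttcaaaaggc
The *Me1* and *Pir* cores are the same 9 letters read from opposite strands. In *Ggt1* the windows of 3 of its 4 annotated starts held a core (TGACACAGC, GCTGGGTCA and TGACGCTGC), and *Srxn1* held GCTAGGTCA beginning 29 bases past its start. The *Pir* window held a second core, GCGGAGTCA, beginning 20 bases past its start and so outside the stretch shown.

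Among the enzymes of quinone, aldehyde and carbonyl reduction, *Nqo1* and *Cbr3* fell. Of 24 tested genes, 2 were called lower, none higher, and the median log2 fold change was −0.11. *Nqo1* encodes NAD(P)H quinone dehydrogenase 1, which reduces quinones to hydroquinones. It was at 28.3, 36.5 and 26.1 CPM in LL2 WT against 9.94, 10.96 and 8.55 CPM in *NRF2* KO, and the highest *NRF2* KO sample lay well below the lowest LL2 WT sample. The log2 fold change was −1.61 (standard error 0.137, adjusted p = 5.68e-05). *Cbr3*, a carbonyl reductase, was at 3.66, 5.82 and 3.47 CPM in LL2 WT against 1.14, 1.23 and 0.769 CPM in *NRF2* KO, with a log2 fold change of −1.93 (standard error 0.222, adjusted p = 0.001). Its paralog *Cbr1* overlapped between the lines (25.1, 23.5 and 18.3 CPM against 20.6, 17.9 and 18.1 CPM). The *KEAP1* KO clones held *Nqo1* at means of 476, 276 and 488 CPM and *Cbr3* at 57.9, 37.97 and 44.2 CPM.

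Glutathione conjugation held the most calls. Of 20 tested transferases, 5 were called lower (25%), beside 0.375% of all genes tested, and none higher. All *NRF2* KO samples lay below LL2 WT for 7 of the 20, beside 4.53% of all genes tested. The median log2 fold change was −0.72. The median was −0.42 without LL2 WT replicate 3 and −0.45 with a pseudocount of 1 CPM. *Mgst1*, a membrane-bound transferase and peroxidase, was at 5.09, 4.82 and 7.11 CPM in LL2 WT against 0.115, 0.282 and 0.286 CPM in *NRF2* KO. The log2 fold change was −4.17 (standard error 0.2, adjusted p = 1.7e-07), and the mean CPM, without the 0.1 offset, was 4.01% of that of LL2 WT. Its relative *Mgst2* was at 45, 36.95 and 59.98 CPM in LL2 WT against 16.7, 12.6 and 24.9 CPM in *NRF2* KO (log2 fold change −1.41, adjusted p = 0.012). Not every member was low: *Mgst3* spread over 43.2 to 102 CPM in LL2 WT against 69.5 to 107 CPM in *NRF2* KO, and the lines overlapped.

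*Gsta4*, the transferase for the lipid aldehyde 4-hydroxynonenal, was at 33.9, 25.1 and 34.3 CPM in LL2 WT against 13.2, 8.74 and 14.8 CPM in *NRF2* KO, with a log2 fold change of −1.36 (standard error 0.189, adjusted p = 0.00497). *Gstm1*, a mu-class transferase, was at 109.8, 76.5 and 199.9 CPM in LL2 WT against 25.3, 19.9 and 45.4 CPM in *NRF2* KO, with a log2 fold change of −2.06 (standard error 0.372, adjusted p = 0.0226). In both lines replicate 3 was the highest and replicate 2 the lowest for *Gstm1*. *Gstm2* was at 55.1, 44.8 and 67.5 CPM against 21, 23.96 and 27.7 CPM (log2 fold change −1.19, adjusted p = 0.049). Between the *Gstm* genes reads can be split: 28.8% of the 31-base stretches of *Gstm1* transcripts and a smaller share of those of *Gstm2* also occur in another gene. The clones averaged 354, 312 and 407 CPM of *Gstm1*. *Gstm4* (5.295, 3.94 and 8.81 CPM against 2.58, 3.21 and 3.31 CPM, adjusted p = 0.266) and *Gstp1* (569, 443 and 511 CPM against 339.6, 273 and 330.2 CPM, adjusted p = 0.0568) did not overlap between the lines and were not called. *Gstp1* was lower still in the clones on average.

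The alpha-class genes *Gsta1* and *Gsta2* were listed at 0 in every LL2 WT sample and in replicates 1 and 2 of *NRF2* KO, and at 0.00692 and 0.226 CPM in replicate 3. *Gsta3* ranged from 0.0343 to 0.179 CPM in LL2 WT, and from 0.0872 to 0.470 CPM in *NRF2* KO. In the *KEAP1* KO clones their means ran from 111 to 478 CPM for *Gsta1*, 204 to 876 CPM for *Gsta2* and 169 to 360 CPM for *Gsta3*. Because 92.9% of the stretches of *Gsta1* and 60.7% of those of *Gsta2* occur in other genes, the split between them is uncertain. These genes thus had no basal level here from which a fall could be measured, whereas *Gsta4* had one.

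In glutathione synthesis and recycling, *Ggt1* and *Esd* fell. Of 14 tested genes, 2 were called lower, none higher, and the median log2 fold change was −0.17. *Ggt1*, the gamma-glutamyl transferase that starts the breakdown of extracellular glutathione, was at 11.5, 5.23 and 24.2 CPM in LL2 WT against 0.209, 0.216 and 1.35 CPM in *NRF2* KO. The lowest LL2 WT sample was above the highest *NRF2* KO sample, and the log2 fold change was −4.46 (standard error 0.6, adjusted p = 0.00391). *Esd*, an esterase that releases glutathione from S-formylglutathione, was at 647, 626 and 671 CPM in LL2 WT against 290.0, 268 and 210.5 CPM in *NRF2* KO, a tight pair of groups with a log2 fold change of −1.35 (standard error 0.11, adjusted p = 3.88e-05). The *KEAP1* KO clones averaged 38.5, 41.1 and 57.97 CPM of *Ggt1* and 1599, 2010 and 2550 CPM of *Esd*.

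The genes best known for making glutathione were not called. *Gclc*, the catalytic subunit of glutamate-cysteine ligase, was at 36.99, 44.4 and 38.3 CPM in LL2 WT against 25.4, 31.6 and 22.8 CPM in *NRF2* KO. Its log2 fold change was −0.59 (95% confidence interval −0.83 to −0.36, adjusted p = 0.0246), under 2-fold. *Gclm*, the modifier subunit of the same enzyme, overlapped between the lines, at 57.4, 76.4 and 42.2 CPM in LL2 WT against 52.3, 58.5 and 35.4 CPM in *NRF2* KO (log2 fold change −0.26, 95% confidence interval −0.71 to 0.20). *Slc7a11*, the cystine importer, also overlapped, with 5.54, 1.81 and 5.41 CPM against 1.6, 1.33 and 4.25 CPM, and its interval of −1.75 to 0.09 on the log2 scale leaves room for a fall of more than 2-fold. For *Gsr*, glutathione reductase, the log2 fold change was −0.25 (95% confidence interval −0.50 to −0.01, adjusted p = 0.435). The *KEAP1* KO clones held *Gclm* at means of 399.8, 517 and 566 CPM and *Slc7a11* at 19.5, 52.5 and 99.6 CPM.

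Among the thioredoxin and peroxiredoxin genes, *Srxn1* fell. Of 14 tested, 1 was called lower, none higher, and the median log2 fold change was −0.24. *Srxn1*, sulfiredoxin, which repairs over-oxidized peroxiredoxins, was at 65.6, 59.97 and 69.5 CPM in LL2 WT against 34.1, 30.1 and 31.9 CPM in *NRF2* KO, with a log2 fold change of −1.02 (standard error 0.155, adjusted p = 0.00885). Its means in the *KEAP1* KO clones were 68.5, 38.97 and 52.3 CPM, which puts 2 of the 3 clones below the LL2 WT mean. *Txnrd1*, thioredoxin reductase, had every *NRF2* KO sample (126, 143 and 92.8 CPM) below LL2 WT (151, 175 and 144 CPM), with a log2 fold change of −0.40 (95% confidence interval −0.68 to −0.12, adjusted p = 0.254). *Prdx1* was at 873, 900.3 and 505 CPM in LL2 WT against 746, 749 and 481 CPM in *NRF2* KO, and replicate 3 was the lowest in both lines (log2 fold change −0.19, adjusted p = 0.796). It turned to 0.02 without *NRF2* KO replicate 3.

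In NADPH supply, *Me1* fell. Of 12 tested genes, 1 was called lower, none higher, and the median log2 fold change was −0.02. *Me1*, malic enzyme 1, which makes NADPH from malate, was at 44.8, 49.8 and 45.3 CPM in LL2 WT against 24.04, 25.02 and 18.5 CPM in *NRF2* KO, with a log2 fold change of −1.06 (standard error 0.105, adjusted p = 0.000262). Its transcripts share 36.9% of their stretches with other genes. *G6pdx*, the entry enzyme of the pentose phosphate pathway, was at 84.2, 81.8 and 61.9 CPM against 51.4, 52.5 and 52.95 CPM. These groups did not overlap, but the log2 fold change of −0.52 was not called (95% confidence interval −0.81 to −0.24, adjusted p = 0.133). *Idh1*, named after its values were seen, had a log2 fold change of −1.10 with samples at 233, 184 and 299 CPM against 114, 92.5 and 123 CPM, and was not called (adjusted p = 0.161).

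Among the genes of heme and iron, *Slc48a1* fell. Of 12 tested genes, 1 was called lower, beside 0.375% of all genes tested, and none higher. All *NRF2* KO samples lay below LL2 WT for 5 of the 12, beside 4.53% of all genes tested. The median log2 fold change was −0.47. *Slc48a1*, a heme transporter also known as HRG1, was at 67.2, 60.9 and 78.6 CPM in LL2 WT against 28.4, 24.4 and 24.98 CPM in *NRF2* KO. No *NRF2* KO sample came near LL2 WT, and the log2 fold change was −1.40 (standard error 0.112, adjusted p = 3.88e-05). Its means in the clones were 74.7, 105 and 149.8 CPM. The ferritin subunits fell by less than 2-fold with an adjusted p under 0.05. *Ftl1*, the light chain, was at 3445, 3330 and 3366 CPM against 1912, 2099 and 1770 CPM (log2 fold change −0.81, adjusted p = 0.0122), and *Fth1*, the heavy chain, at 4160, 3398 and 3807 CPM against 2793, 2729 and 2698 CPM (log2 fold change −0.46, adjusted p = 0.0246). *Abcb6*, a mitochondrial porphyrin transporter, was at 23.1, 20.9 and 15.8 CPM against 10.9, 10.6 and 10.9 CPM (log2 fold change −0.86, adjusted p = 0.00404). Transcripts of *Ftl1* and *Abcb6* shared 64.1% and 52.1% of their 31-base stretches with other genes, so reads can be split there. In the clones *Ftl1* averaged 6508, 5415 and 5960 CPM, above LL2 WT, and *Fth1* 2296, 2583 and 2671 CPM, below it.

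*Hmox1*, heme oxygenase 1, a widely used inducible NRF2 target, overlapped between the lines at 44.9, 37.9 and 56.7 CPM in LL2 WT against 25.03, 34.6 and 41.9 CPM in *NRF2* KO. Its log2 fold change was −0.47 (95% confidence interval −0.87 to −0.07, adjusted p = 0.368). *Blvrb*, a biliverdin reductase named after its values were seen, was at 23.9, 15.2 and 38.1 CPM against 9.31, 5.69 and 13.3 CPM, a log2 difference of −1.42 that missed the threshold (adjusted p = 0.0649). In the *KEAP1* KO clones *Hmox1* averaged 56.2, 56.9 and 71.2 CPM and *Blvrb* 213, 233 and 225 CPM.

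In glucuronidation and efflux, *Ugt1a6a* and *Ugt1a7c* fell. Of 14 tested genes, 2 were called lower, none higher, and the median log2 fold change was −0.12. Both are UDP-glucuronosyltransferases of the *Ugt1a* cluster, whose genes have their own first exon and share the rest. *Ugt1a6a* was at 2.21, 1.51 and 5.16 CPM in LL2 WT against 5.96e-07, 0.133 and 1.38e-05 CPM in *NRF2* KO, where replicates 1 and 3 are in effect at 0 (log2 fold change −4.35, standard error 0.41, adjusted p = 0.000171). *Ugt1a7c* was at 1.39, 0.566 and 3.51 CPM against 0.156, 0.0884 and 0.0326 CPM (log2 fold change −3.04, adjusted p = 0.0226), with means of 3.19, 1.97 and 3.35 CPM in the clones. Because 53% and 55.7% of their stretches occur in other genes, the split among *Ugt1a* genes is uncertain, and *Ugt1a6b* was at or under 0.291 CPM in all 6 samples. *Abcc1*, the main glutathione conjugate exporter, overlapped at 30.4, 22.1 and 37.5 CPM against 18.04, 17.2 and 24.8 CPM (log2 fold change −0.56, 95% confidence interval −1.06 to −0.07, adjusted p = 0.382).

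Among feedback genes and NRF2-induced regulators, *Pir* fell. Of 27 tested genes, 2 were called lower, none higher, with a median log2 fold change of −0.06. The first is *Me1*, which stands in 2 lists. The other is *Pir*, pirin, a nuclear iron protein, at 19.8, 16.7 and 23.5 CPM in LL2 WT against 9.31, 5.701 and 9.11 CPM in *NRF2* KO, with a log2 fold change of −1.33 (standard error 0.188, adjusted p = 0.0055). *Sqstm1*, the p62 autophagy receptor that competes for KEAP1, overlapped narrowly at 341, 303 and 361 CPM against 229.9, 244 and 329.8 CPM (log2 fold change −0.34, adjusted p = 0.313). *Osgin1*, an oxidative stress growth inhibitor, was at 9.58, 6.93 and 10.6 CPM against 6.34, 5.44 and 8.45 CPM (log2 fold change −0.42, adjusted p = 0.41).

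**Figure D2:**
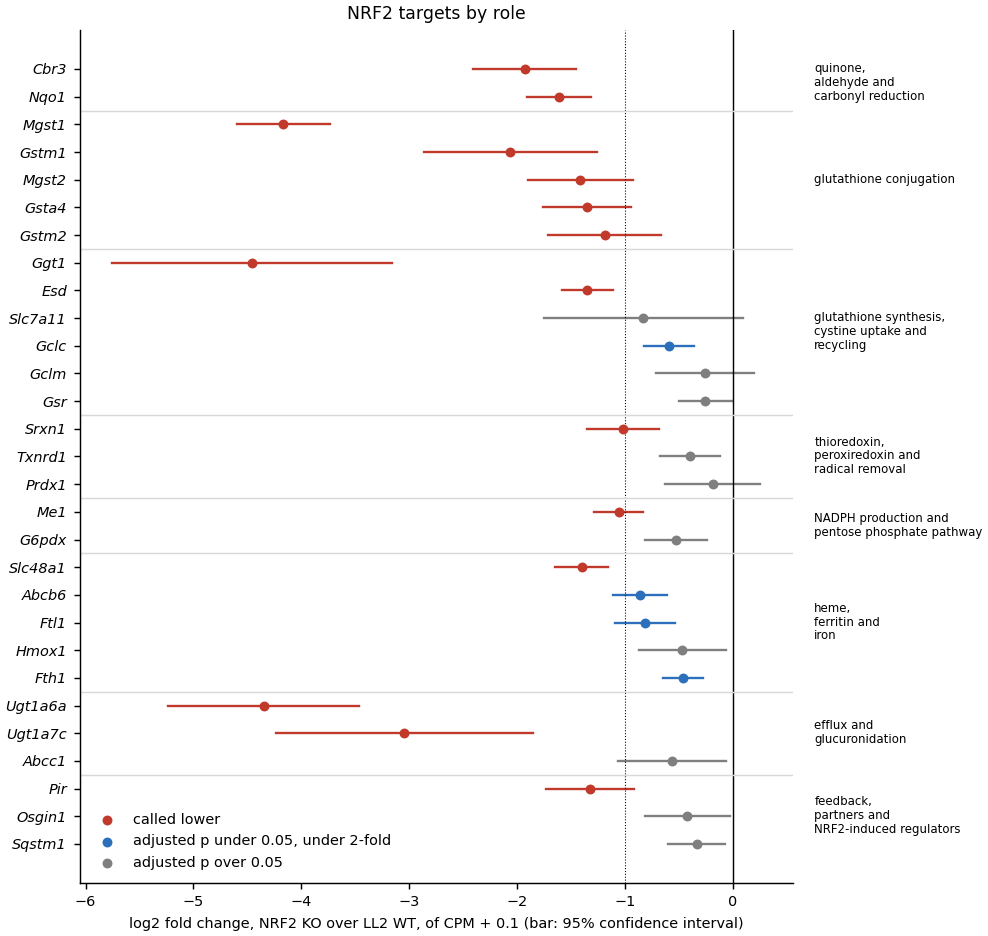
Log2 fold change of CPM plus 0.1, *NRF2* KO over LL2 WT, with its 95% confidence interval from limma, for a selection of NRF2 targets. Shown are targets that were called lower, had an adjusted p under 0.05 or are among the canonical targets. Red marks targets called lower, blue an adjusted p under 0.05 but under 2-fold, and grey an adjusted p over 0.05. All points of this selection lie below 0. The intervals of *Slc7a11*, *Gclm* and *Prdx1* reach past 0, and *Mgst1*, *Ggt1* and *Ugt1a6a* lie beyond −4. Of the targets described but not shown, *Gsta1*, *Gsta2*, *Gsta3*, *Mgst3* and *Ugt1a6b* lie above 0. *Cbr1*, *Gstm4*, *Gstp1*, *Idh1* and *Blvrb*, also not shown, lie below 0.

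The 15 targets differed widely in how far the *KEAP1* KO clones stood above LL2 WT. This is given as levels side by side, since both contrasts use the same LL2 WT samples. *Mgst1* averaged 5.67 ± 1.25 CPM (SD, n = 3) in LL2 WT, beside 273, 201 and 168 CPM in the 3 clones, and *Gsta4* 31.1 ± 5.21 CPM and 465, 619.8 and 754 CPM. *Gstm2* (55.8 ± 11.3 CPM against 74.6, 49.6 and 77.6 CPM) and *Mgst2* (47.3 ± 11.7 CPM against 50.2, 67.9 and 70.8 CPM) stood closer to LL2 WT in the clones, as did *Srxn1*. *Pir* (20.02 ± 3.42 CPM against 52.9, 60.05 and 53.99 CPM), *Me1* (46.6 ± 2.78 CPM against 129, 126 and 146 CPM) and *Ugt1a6a* (2.96 ± 1.93 CPM against 42.4, 19.7 and 31.9 CPM) lay between.

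**Figure D3:**
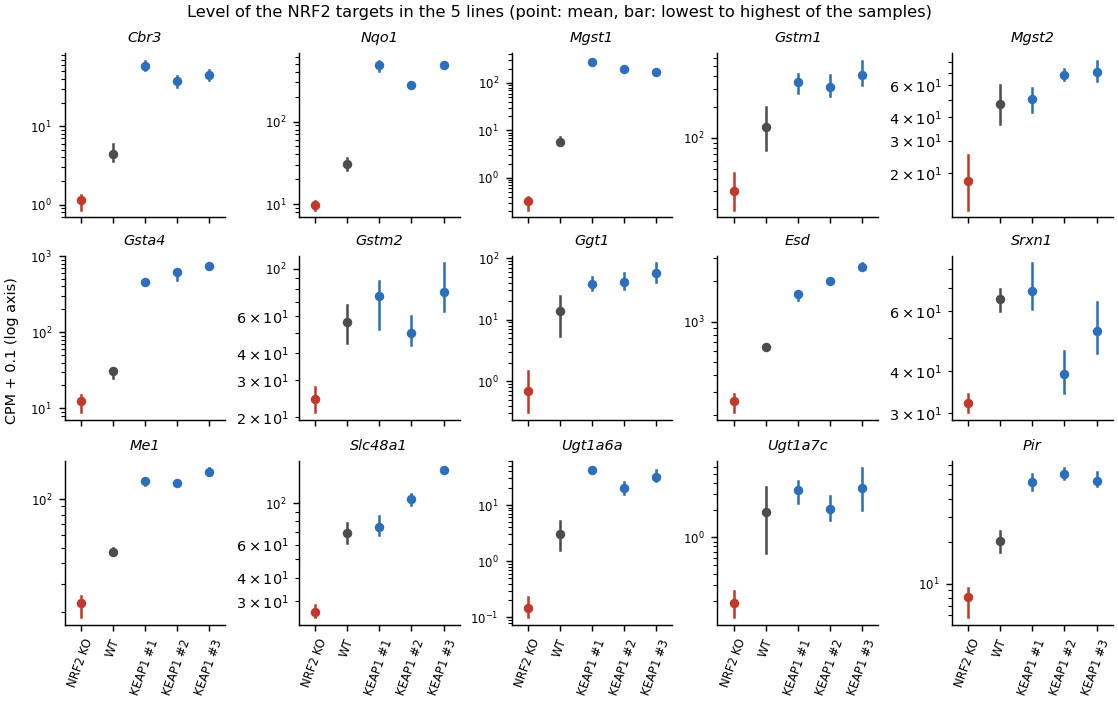
Mean CPM plus 0.1 on a log axis, with a bar from the lowest to the highest of 3 samples, for the 15 called targets in *NRF2* KO (red), LL2 WT (grey) and *KEAP1* KO #1, #2 and #3 (blue), each gene on its own scale. *NRF2* KO has the lowest mean in every panel, and for *Srxn1* and *Gstm2* the clones do not all stand above LL2 WT.

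The calls of the targets lean on the spread estimated over 5 lines. With LL2 WT and *NRF2* KO alone in the model, *Mgst1* was the 1 target of 15 still called (adjusted p = 0.0308). With a replicate block added to that model it was not (0.0566) and *Gstm1* was (0.0406), so no target was called in both. Without the block, the targets other than *Mgst1* ranged from 0.0562 for *Slc48a1* to 0.42 for *Gstm1*. All 15 were at an unadjusted p under 0.05 in that model. When any 1 of the 6 samples was left out, *Nqo1*, *Cbr3*, *Gsta4*, *Mgst1*, *Ggt1*, *Esd*, *Slc48a1*, *Ugt1a6a* and *Pir* were called each time. *Gstm1* and *Mgst2* were lost without replicate 1 or 3 of LL2 WT or replicate 1 or 2 of *NRF2* KO (adjusted p 0.0742 to 0.124 and 0.0529 to 0.0605). *Gstm2* and *Ugt1a7c* were lost without any sample but LL2 WT replicate 2 (0.0769 to 0.191 and 0.0605 to 0.0969). *Srxn1* slipped under the fold threshold, at −0.97, when LL2 WT replicate 3 was left out and again when *NRF2* KO replicate 2 was. Its adjusted p was 0.0458 in 1 of these fits and 0.0532 in the other, which missed that threshold too. *Me1*, at −0.92 without *NRF2* KO replicate 3, slipped under the fold threshold alone. A pseudocount of 1 CPM left 12 of the 15 called, without *Gstm2*, *Srxn1* and *Ugt1a7c*. With 0.5 CPM 13 were left, without *Gstm2* and *Ugt1a7c*. *Gstm2* was also lost with no filter, with a filter at a mean of 1 CPM and without the mean-variance trend. Sample weights lost *Srxn1* and *Me1*. All 15 had a log2 fold change below 0 under each of the 19 alternatives. This says little of their stability, since in each of them all *NRF2* KO samples lay below all LL2 WT samples.

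Outside the target lists, 40 genes were called lower and 13 higher, and 35 and 13 of them were in none of the function lists. Those with the widest gaps were at or near 0 CPM in *NRF2* KO. *Clip3*, a linker protein of microtubules and endosomes, was at 13.7, 8.24 and 16.8 CPM in LL2 WT against 0.0176, 0 and 0 CPM in *NRF2* KO (adjusted p = 5.3e-07), and its means in the *KEAP1* KO clones were 1.74, 2.73 and 1.28 CPM. *Ly9*, a receptor of the SLAM family otherwise known from lymphocytes, was at 7.53, 6.98 and 7.02 CPM against 0.0436, 0.109 and 0.0267 CPM (log2 fold change −5.54, standard error 0.226, adjusted p = 4.33e-08). It was at means of 7.71, 0.442 and 7.34 CPM in the *KEAP1* KO clones, so that 1 other clone was also low.

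*Crmp1*, a collapsin response mediator, fell from 4.22, 3.37 and 4.95 CPM to 0.121, 0.1499 and 0.249 CPM (log2 fold change −3.98, adjusted p = 3.88e-05), and *Enpp5*, of the nucleotide pyrophosphatase family, from 3.25, 2.09 and 6.01 CPM to 0.181, 0.121 and 0.439 CPM (log2 fold change −3.46, adjusted p = 0.00205). *Crmp1* and *Enpp5* were under 1 CPM on average in all 3 *KEAP1* KO clones as well. The same held for *Crip1*, a LIM-domain protein, at 4.63, 5.29 and 4.03 CPM against 0.669, 0.0922 and 0.665 CPM (log2 fold change −3.29, adjusted p = 0.0122), and for *Pcbd1*, a pterin dehydratase, at 1.61, 1.404 and 1.24 CPM against 0.0502, 0.134 and 0.0648 CPM (log2 fold change −3.07, adjusted p = 0.00116). These 4 genes were thus under 1 CPM on average in all 4 edited lines, whichever gene had been edited, and above 1 CPM in each LL2 WT sample.

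*Selenop*, the plasma selenium carrier, was at 8.43, 5.01 and 24.9 CPM in LL2 WT against 0.5999, 0.621 and 1.72 CPM in *NRF2* KO (log2 fold change −3.40, adjusted p = 0.021), and replicate 3 was the highest in both lines. The clones averaged 20.2, 0.779 and 2.91 CPM. *Batf*, an AP-1 family factor, was at 1.63, 2.06 and 1.75 CPM against 0.306, 0 and 0.0999 CPM (log2 fold change −3.25, adjusted p = 0.0149), and its means in the clones were 2.27, 0.0802 and 0.0137 CPM. *Fam20c*, a kinase of secreted proteins, was at 1.35, 0.453 and 1.36 CPM against 0.0496, 0.0126 and 0.0215 CPM (log2 fold change −3.05, adjusted p = 0.0187), beside clone means of 1.18, 0.122 and 0.0451 CPM. *Gm10709* was at 1.59, 1.04 and 1.69 CPM in LL2 WT and listed at 0 in all 3 *NRF2* KO samples (adjusted p = 0.0136), but 94.7% of its stretches occur in other genes. The clones averaged 2.32, 1.76 and 2.097 CPM.

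A further 3 genes called lower were named after their values were seen. The means of *Lrrc75b* and *Mocos* lay above LL2 WT in all 3 *KEAP1* KO clones. *Lrrc75b*, the neighbor of *Ggt1* on chromosome 10, was at 1.05, 0.572 and 1.56 CPM in the parental line, 0.0709, 0.0203 and 0.176 CPM without NRF2 (log2 fold change −2.61, adjusted p = 0.00525) and 3.78, 3.16 and 3.901 CPM on average in the clones. *Mocos*, the molybdenum cofactor sulfurase, was in the same order at 1.38, 1.29 and 1.93 CPM, 0.465, 0.497 and 0.648 CPM (log2 fold change −1.35, adjusted p = 0.0134) and 5.64, 7.33 and 8.05 CPM on average in the clones. *Creg1*, a secreted glycoprotein of endosomes and lysosomes, was at 34.1, 41.2 and 37.3 CPM in LL2 WT against 16.5, 19.7 and 14.1 CPM in *NRF2* KO (log2 fold change −1.17, standard error 0.127, adjusted p = 0.000612), with clone means of 48.3, 27.2 and 49.9 CPM. With LL2 WT and *NRF2* KO alone in the limma model, none of the 3 was called (adjusted p = 0.277, 0.332 and 0.141). *Mocos* was also lost in 3 of 6 fits without 1 sample (up to 0.0743) and with pseudocounts of 0.5 and 1 CPM. *Lrrc75b* was lost with 1 CPM, at a log2 fold change of −0.89.

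The 13 genes called higher reached at most 54.7 CPM on average in *NRF2* KO, and none is in an NRF2 target list. *Ccbe1*, a matrix protein needed for lymphatic growth, rose from 1.01, 1.23 and 1.48 CPM to 6.27, 9.98 and 7.76 CPM (log2 fold change 2.59, standard error 0.385, adjusted p = 0.00812). Its clone means, 0.344, 0.486 and 1.32 CPM, lay near or below LL2 WT. The inactive phospholipase C relatives *Plcl1* and *Plcl2* rose together, *Plcl1* from 0.1103, 0.1105 and 0.184 CPM to 0.747, 1.43 and 1.41 CPM (log2 fold change 2.43, adjusted p = 0.00116) and *Plcl2* from 0.807, 0.575 and 0.751 CPM to 1.61, 1.75 and 1.89 CPM (log2 fold change 1.2, adjusted p = 0.0372). In the clones *Plcl1* averaged 1.14, 0.912 and 1.51 CPM, all above LL2 WT, and *Plcl2* 1.48, 0.173 and 0.484 CPM. *Epdr1*, ependymin related 1, rose from 3.52, 2.74 and 4.47 CPM to 10.23, 9.01 and 11.3 CPM (log2 fold change 1.51, standard error 0.155, adjusted p = 0.000388). It was higher still in the *KEAP1* KO clones, at 28.97, 20.9 and 21.3 CPM on average.

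*Tmem74*, a lysosomal membrane protein, rose from 2.35, 2.12 and 2.63 CPM to 5.14, 5.98 and 7.07 CPM (log2 fold change 1.32, adjusted p = 0.00509), and *Dock3*, a Rac activator, from 0.671, 0.796 and 0.356 CPM to 2.51, 1.64 and 2.43 CPM (log2 fold change 1.73, adjusted p = 0.0129). Both stood above LL2 WT in the clones as well, *Tmem74* at means of 4.73, 5.75 and 8.25 CPM and *Dock3* at 2.57, 1.91 and 1.62 CPM. *Cnrip1*, a cannabinoid receptor partner, was at 1.61, 1.26 and 1.77 CPM against 4.55, 3.904 and 5.48 CPM (log2 fold change 1.52, adjusted p = 0.041). In the clones *Cnrip1* was under 0.1 CPM on average, so *NRF2* KO was the only one of the 4 edited lines in which its mean exceeded that of LL2 WT. *Lin28b*, a repressor of let-7 maturation, *Tspan12*, a tetraspanin of Norrin signaling, and *Xlr* rose by 1.39, 1.29 and 1.84 on the log2 scale from LL2 WT means under 0.5 CPM. *Lin28b* (0.992, 0.787 and 1.35 CPM) and *Tspan12* (1.78, 2.28 and 3.75 CPM) were above LL2 WT on average in all 3 clones too, and *Xlr* averaged 0.433, 0.642 and 0.3696 CPM there. *Otulin*, the linear ubiquitin chain hydrolase, rose from 30.7, 35.2 and 18.3 CPM to 55.7, 61.3 and 47.1 CPM (log2 fold change 1.00, adjusted p = 0.0485), and *Ano1*, a calcium-gated chloride channel, from 6.48, 5.84 and 4.83 CPM to 8.24, 15.6 and 12.03 CPM (log2 fold change 1.01, adjusted p = 0.0488). The clones averaged 34.6, 45.4 and 44.2 CPM of *Otulin* and 17.8, 69.9 and 60.6 CPM of *Ano1*. The remaining call, *Nrep*, averaged under 1 CPM in both lines.

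**Figure D4:**
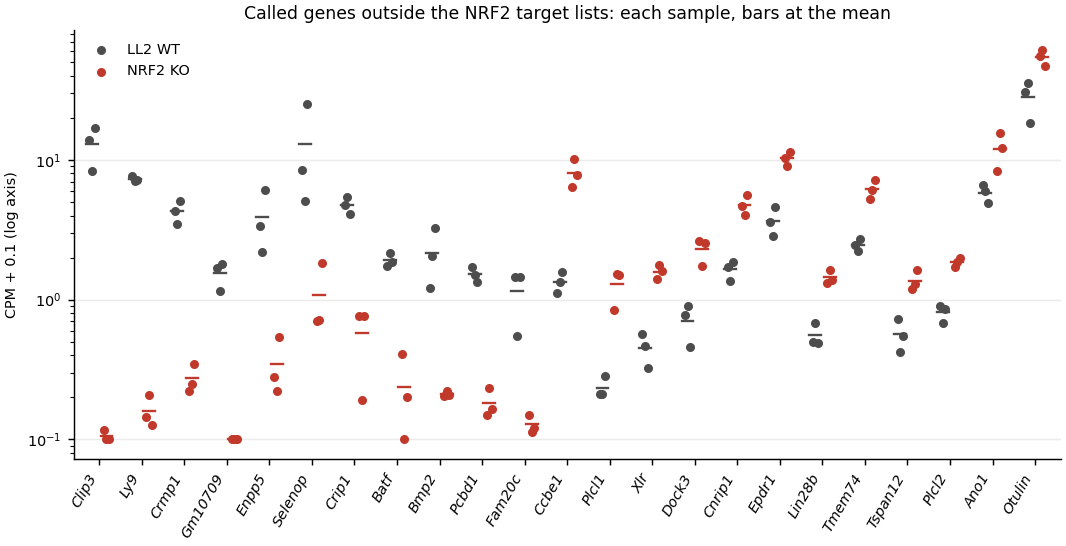
CPM plus 0.1 on a log axis for the genes outside the NRF2 target lists among the calls with the largest fold changes at a mean of at least 1 CPM. They are 11 called lower and 12 called higher, with 3 points per line and a bar at the mean (grey, LL2 WT; red, *NRF2* KO). *Bmp4*, *Tnfrsf21*, *Lpl*, *Stra6*, *Lrrc75b*, *Mocos* and *Creg1*, also called lower, are not shown. *Clip3* and *Gm10709* sit at the 0.1 offset in *NRF2* KO, and *Ano1* and *Otulin* show the narrowest gaps.

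In the 2-line model, *Clip3* and *Ly9* (adjusted p = 0.00593 each) and *Crmp1* and *Gm10709* (0.0247 each) stayed called among these 23 genes, and with a replicate block added *Clip3* did (0.0406). Without any 1 sample, *Clip3*, *Ly9*, *Crmp1*, *Enpp5*, *Bmp2*, *Pcbd1*, *Plcl1*, *Epdr1* and *Tmem74* were called each time, whereas *Cnrip1* and *Plcl2* lost the call whichever sample was left out (adjusted p up to 0.151 and 0.142). *Otulin*, *Ano1*, *Fam20c* and *Tspan12* kept it in 1 of 6 such fits, *Gm10709*, *Selenop* and *Lin28b* in 2 and *Batf* in 3. *Ccbe1*, *Xlr*, *Dock3* and *Crip1* lost it in 1 fit each. With pseudocounts of 0.5 and 1 CPM the call was also lost for *Gm10709*, *Fam20c*, *Lin28b*, *Tspan12*, *Plcl2*, *Ano1* and *Otulin*. *Plcl1*, *Xlr* and *Dock3* lost it with 1 CPM alone, so these calls lean on the small offset.

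The calls in 31 lists of other functions, from cytokines to ribosomal proteins, were near the background. Of their 903 tested genes, 7 were called (0.775%), all lower, beside 0.464% of all genes tested in either direction, and 26 lists held no call. The list medians ran from −0.43 to 0.23 on the log2 scale, beside 0.04 over all genes tested. The calls in these lists were *Bmp2* and *Bmp4* (27 tested), *Tnfrsf21* (15 tested), *Lpl* (24 tested), *Stra6* (14 tested), and *Nqo1* and *Ugt1a6a*, which also count as aryl hydrocarbon receptor targets (10 tested).

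Of the bone morphogenetic proteins, both calls were of genes at a few CPM. *Bmp2* was at 1.11, 1.94 and 3.15 CPM in LL2 WT against 0.105, 0.1204 and 0.108 CPM in *NRF2* KO (log2 fold change −3.25, adjusted p = 0.00271), with clone means of 1.15, 0.0597 and 0.283 CPM. *Bmp4* was at 5.59, 0.995 and 5.49 CPM against 0.305, 0.285 and 0.435 CPM (log2 fold change −2.90, adjusted p = 0.0486). The *KEAP1* KO clones held *Bmp4* at means of 4.2, 0.0966 and 0.0544 CPM, so that 2 of the 3 clones lay below *NRF2* KO. *Tnfrsf21*, death receptor 6, was at 11.9, 11.3 and 17.1 CPM against 4.87, 5.37 and 7.13 CPM (log2 fold change −1.20, adjusted p = 0.0254), and the *KEAP1* KO clones were as low, at means of 5.503, 5.49 and 5.49 CPM. *Lpl*, lipoprotein lipase, was at 4.01, 4.15 and 5.45 CPM against 1.23, 1.34 and 2.53 CPM (log2 fold change −1.42, adjusted p = 0.0129) and at 24.5, 24.9 and 21.9 CPM on average in the clones. *Stra6*, the retinol uptake receptor, was at 0.833, 0.329 and 1.04 CPM against 0.06503, 0.0253 and 0.0289 CPM (log2 fold change −2.47, adjusted p = 0.0226), beside clone means of 0.568, 0.278 and 0.00795 CPM. Apart from *Bmp2*, each of these was lost without LL2 WT replicate 3 among other samples, at adjusted p values of up to 0.212 for *Bmp4*, 0.137 for *Tnfrsf21*, 0.0752 for *Lpl* and 0.107 for *Stra6*.

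In 7 lists of immune signals *Tnfrsf21* was the 1 call among 134 tested genes (0.746%), and 11.2% had an unadjusted p under 0.05, the same share as over all genes tested. Of 14 chemokines and colony-stimulating factors tested, 1 had an unadjusted p under 0.05, of 28 interleukins and receptors 3, of 25 interferon-stimulated genes 3, of 21 class I antigen presentation genes none and of 13 checkpoint genes 2. *Il33*, an alarmin cytokine, was at 14.3, 3.01 and 45.3 CPM in LL2 WT against 0.8799, 0.21 and 7.03 CPM in *NRF2* KO. The lines overlapped, and LL2 WT itself spread from 3.01 to 45.3 CPM (log2 fold change −3.29, 95% confidence interval −5.61 to −0.97, adjusted p = 0.254). *Il23a* was at 0.308, 0.983 and 1.19 CPM against 4.72, 2.09 and 1.84 CPM, all above LL2 WT (log2 fold change 1.72, adjusted p = 0.173). *Lgals9*, galectin 9, was at 7.31, 7.796 and 5.37 CPM against 3.47, 3.61 and 2.997 CPM (log2 fold change −0.99, adjusted p = 0.253). Of the NF-kB genes, *Rela* (51.6, 50.3 and 45.3 CPM against 58.99, 64.2 and 63.3 CPM) and *Cyld* (13.8, 15.4 and 16.9 CPM against 21.3, 26.4 and 23.4 CPM) did not overlap, with adjusted p values of 0.126 and 0.11.

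Prostaglandin genes included *Pla2g4a*, cytosolic phospholipase A2, which releases arachidonic acid, at 62.1, 70.3 and 59.05 CPM in LL2 WT against 43.8, 41.2 and 32.2 CPM in *NRF2* KO. Its adjusted p was 0.0144 with a log2 fold change of −0.72, under 2-fold. *Ptgs2*, cyclooxygenase 2, was at 16.4, 21.2 and 58.9 CPM against 8.05, 13.1 and 11.04 CPM and was not called (log2 fold change −1.37, adjusted p = 0.153). Other listed genes with an adjusted p under 0.05 and a change under 2-fold were *Cebpb*, a stress-responsive C/EBP factor (53.9, 43.7 and 47.4 CPM against 32.8, 27.4 and 32.5 CPM, log2 fold change −0.64, adjusted p = 0.0136), *Ctsz*, a lysosomal cathepsin (154, 150.2 and 146 CPM against 110.3, 106 and 115 CPM, −0.45, adjusted p = 0.0128), and *Nrp2*, a semaphorin and VEGF receptor (43.1, 52.1 and 48.8 CPM against 61.8, 74.6 and 66.2 CPM, 0.49, adjusted p = 0.0485).

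Glycolysis and hypoxia-inducible genes had the lowest median of the 31 lists. All 36 tested had a log2 fold change below 0, beside 6390 of all 14652 genes tested, with a median of −0.43. Yet none was called by limma, 2 had an unadjusted p under 0.05 and 1 had all *NRF2* KO samples below LL2 WT. *Aldoc*, a fructose-bisphosphate aldolase, was that 1, at 2.56, 0.781 and 8.18 CPM against 0.301, 0.214 and 0.123 CPM (log2 fold change −3.14, adjusted p = 0.152), and *Pfkfb3*, a regulator of glycolytic flux, was at 6.699, 5.89 and 11.5 CPM against 3.06, 3.97 and 6.05 CPM (−0.86, adjusted p = 0.227). The median moved with single samples, from −0.15 without LL2 WT replicate 3 and −0.15 without *NRF2* KO replicate 2 to −0.77 without *NRF2* KO replicate 3 and −0.78 without LL2 WT replicate 2. Replicate 3 was the highest of LL2 WT for both genes.

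Of 48 cell cycle and replication genes, 42 had a log2 fold change above 0 with a median of 0.19, none was called by limma and 6 had an unadjusted p under 0.05. Of all 14652 genes tested, 6390 lay below 0. *E2f7*, a repressor of E2F targets, was at 10.4, 11.9 and 11.5 CPM against 16.1, 14.2 and 19.7 CPM (log2 fold change 0.55, adjusted p = 0.336), and *Pola1*, a DNA polymerase subunit, at 37.9, 37.2 and 27.3 CPM against 42.2, 45.95 and 43.5 CPM (0.38, adjusted p = 0.212). Without LL2 WT replicate 3 the median of the list was −0.03 and 26 of 48 lay below 0, so its direction rested on that sample. The p53 targets and CDK inhibitors, with a median of 0.23 over 26 genes and no call, kept a median above 0 without any 1 sample (0.13 to 0.41). *Pmaip1*, a BH3-only death gene, was at 3.91, 8.54 and 7.24 CPM against 8.49, 16 and 12.6 CPM (log2 fold change 0.93, adjusted p = 0.203).

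The 5 lists of matrix, adhesion and mesenchymal genes held no call by limma among 132 tested genes, where the background of 0.464% would also leave few, and 16.7% had an unadjusted p under 0.05, beside 11.2% of all genes tested. *Col6a3*, a chain of collagen VI, was at 8.49, 7.69 and 10.8 CPM in LL2 WT against 1.02, 0.151 and 1.44 CPM in *NRF2* KO, with a log2 fold change of −3.57 but an adjusted p of 0.11. Its means in the *KEAP1* KO clones were 8.499, 0.178 and 0.0827 CPM. *Fbn1*, fibrillin 1, was at 20.5, 15.3 and 21.4 CPM against 10.8, 9.48 and 9.29 CPM (log2 fold change −0.93, adjusted p = 0.126). *S100a4*, a mesenchymal calcium-binding protein, was at 2089, 2526 and 1074 CPM against 3616, 4332 and 2901 CPM (log2 fold change 1.00, adjusted p = 0.15), and *Cdh2*, N-cadherin, at 6.99, 6.15 and 7.04 CPM against 9.73, 10.5 and 11.04 CPM (0.62, adjusted p = 0.174). Of 86 ribosomal protein genes, 72 had a log2 fold change below 0, beside 6390 of all 14652 genes tested. Their median was −0.11 with none called, and 15 of the 86 had an unadjusted p under 0.05 by limma. Neither the 34 proteasome subunits, with none at an unadjusted p under 0.05, nor the 78 subunits of oxidative phosphorylation, with 1, held a call.

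**Figure D5:**
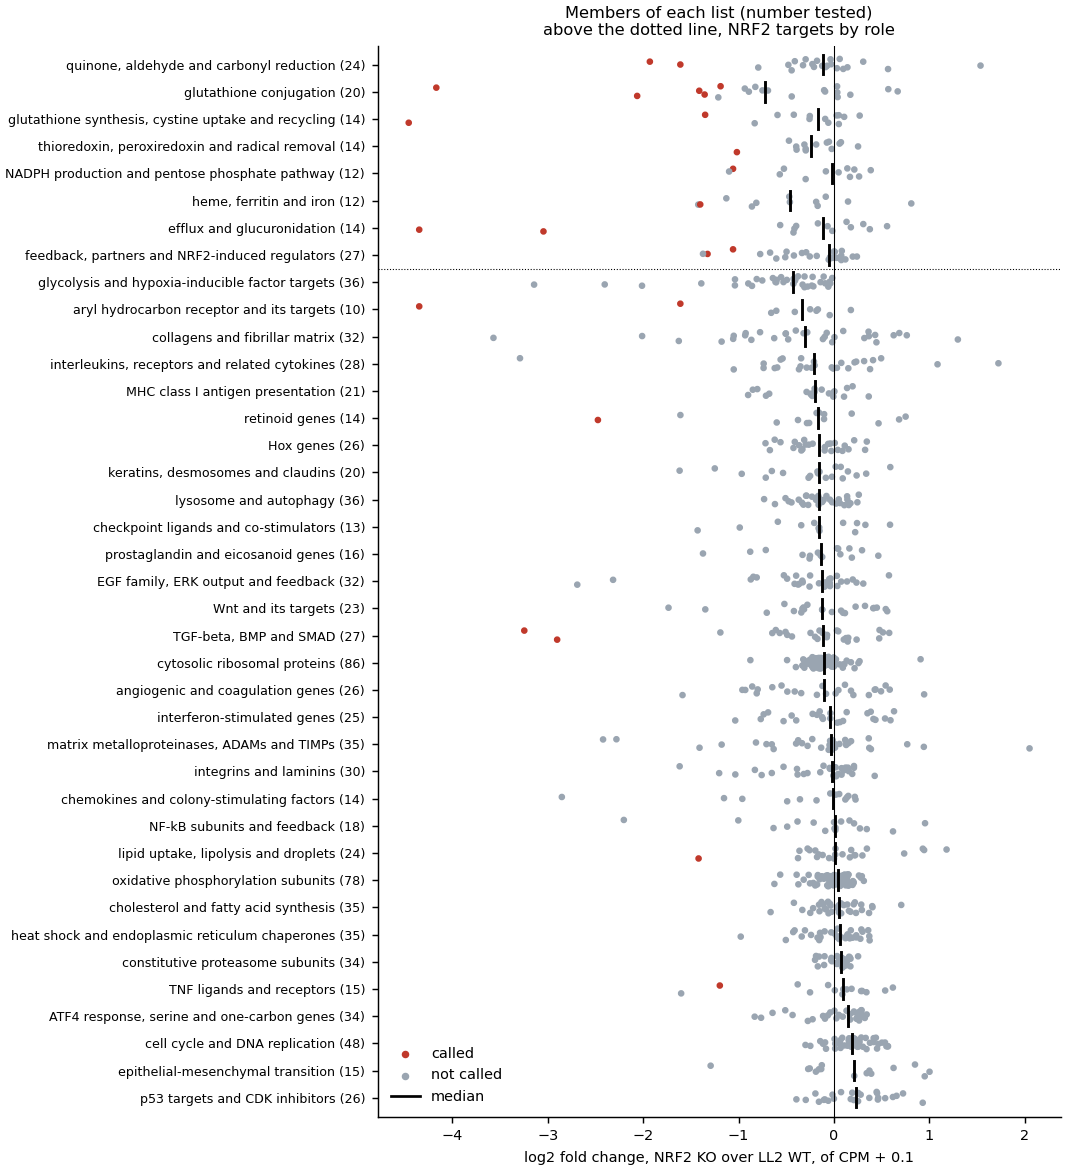
Log2 fold change of CPM plus 0.1, *NRF2* KO over LL2 WT, of every tested member of the 8 NRF2 target lists (above the dotted line) and the 31 other lists, with the number tested in parentheses (red, called; grey, not called) and a black bar at each list's median. Glutathione conjugation has the lowest median of the target lists and glycolysis and hypoxia-inducible factor targets of the others.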

How the data were processed

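Whole-transcript mRNA sequencing was done on 15 samples of 5 LL2 lines, 3 biologic replicates each, and 6 samples entered the comparison. Whether replicates came from separate passages is not given in the sources used here, so p-values measure the spread between these samples, which may be technical. The authors ran kallisto and deposited CPM values per gene symbol, and their methods and processing notes name different mouse builds (GRCm38.p6 and GRCm39), so no gene coordinates were taken from the deposited table, and the promoter windows and gene neighbors are those of RefSeq on GRCm38.p6. The CPM values show no steps of whole reads, and depth is unknown. An entry with a blank symbol was left out.

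Genes with CPM summing to at least 3 over the 15 samples were fitted on log2(CPM + 0.1) with limma 3.58.1 in R 4.3.3, as a mean per line over all 5 lines with a mean-variance trend, and adjusted by Benjamini-Hochberg over all genes tested. Genes were called where the adjusted p was under 0.05 and the log2 fold change was over 1 in size. The script was tested on simulated data first. Shared 31-base stretches were counted over reference transcripts, and tables and figures were made with Python 3.11.15. Named are *Nfe2l2* and *Keap1*, target list members that were called, had an adjusted p under 0.05 or are among 17 canonical targets, called genes with the largest absolute log2 fold change (up to 15 in each direction) at a mean of at least 1 CPM, called members or up to 2 lowest-p members of the other lists, and exceptions (paralogs and members against their list). Genes said to be named after their values were seen fall outside this. The members, lists and tests were chosen with earlier results of these data known. The alternatives were other pseudocounts, filters, scalings, models, replicate terms and single samples left out.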

Additional observations from a re-analysis of the deposited data

How the results depend on the processing

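The main counts were 55 genes called lower, 13 called higher and 15 NRF2 targets among the lower. A filter at a mean of 1 CPM gave 33 lower and 5 higher, a pseudocount of 1 CPM gave 4 higher, and no filter gave 20 higher. With LL2 WT and *NRF2* KO alone in the model the counts were 5 lower, 2 higher and 1 target. The labels give the lines the same replicate numbers, and pairing was to require r over 0.1 for each number. Same-numbered samples deviated together with r = 0.071, 0.529 and 0.631 over 11676 genes, so the numbers were not taken as pairs. Between samples of different numbers r ran from −0.610 to 0.263. Any spread that same-numbered samples share was not removed from the main fit. A replicate block gave 138 lower and 41 higher, and within the 2 lines alone 3 lower, 1 target (*Gstm1*, not *Mgst1*) and 0 higher by limma, with 2948 genes at an unadjusted p under 0.05. Replicate 3 of every line as a batch gave 129 lower and 44 higher, and sample weights 236 lower and 126 higher. Leaving out each sample gave 26 to 66 lower and 4 to 24 higher. Replicates 1 and 2 of every line alone, chosen after seeing the data, gave 34 lower. The cause of these shifts was not tested, beyond the smaller number of samples or genes in some fits. The log2 fold change of *Keap1* ran from −0.0808 to 0.0170 with single samples left out and turned to 0.0157, 0.0124 and 0.0170 without LL2 WT replicate 1, *NRF2* KO replicate 1 and *NRF2* KO replicate 2, and that of *Prdx1* ran from −0.4577 to 0.0248, the latter without *NRF2* KO replicate 3. The median of all genes ran from −0.0160 to 0.0578 over the settings. CPM without read counts limits what can be said of genes near 0.1 CPM.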
